A study of Mus musculus with 768 samples.

Results

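Muscle stem cells with and without reads of *Vcam1* were compared in 377 single cells from the tibialis anterior, a muscle of the lower leg. The 2 groups were chosen by the *Vcam1* count alone: 280 cells held at least 1 read of the gene and 97 held 0. *Vcam1* reads are therefore a description here and no test was run on them. All mice were *Tg:Pax7-nGFP* animals on a C57BL/6;DBA2 F1/JRj background, in which a nuclear green fluorescent protein marks cells that use the *Pax7* promoter. Only the brightest 10% of these cells, called Pax7Hi, were sorted. The paper reports the use of male littermates and a preference for males. Young mice were 2 months old by the labels (Y4, Y5, Y7 and Y8) and old mice 24 months old (O1 and O5), and no group received a treatment. The muscles were digested with enzymes and the cells frozen before sorting, in both ages and in both *Vcam1* groups. RNA of each cell was read as full-length cDNA by the transcriptome part of scM&T-seq, a method that measures RNA and DNA methylation in the same cell.

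*Vcam1* encodes a surface adhesion molecule of the immunoglobulin family. It is the ligand of integrins on neighbouring cells, above all of the pair made from *Itga4* and *Itgb1*, and endothelial cells display it when inflammatory signals through NF-kB reach them. In muscle it is carried by stem cells as well, in which it is widely used to sort them, and its contacts with integrins are known from the fusion of muscle cells. The gene is on chromosome 3 with its start at position 116110020 in the deposited table (GRCm38).

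The level of *Vcam1* separated most cells clearly. Among cells with reads the level ran from 2.48 to 14921 RPM (the reads of a gene scaled to the total reads on genes of that cell) with a median of 1288 RPM, and 224 of the 280 cells, or 80%, held 100 or more reads. Only 20 cells lay just inside the rule, with 1 to 9 reads and levels of 2.48 to 36.6 RPM, of which 5 held a single read. Just outside it, a count of 0 allowed up to 3 reads by counting error alone, a limit of 5.00 to 29.5 RPM over the 97 cells, and 263 of the 280 cells with reads, or 93.9%, lay above the highest of these limits. When 100000 reads were drawn from each cell, 4 of the 280 cells lost all *Vcam1* reads. The libraries carry no molecular identifiers, so that several reads can stem from 1 molecule and these limits cover counting error only.

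**Figure D1:**
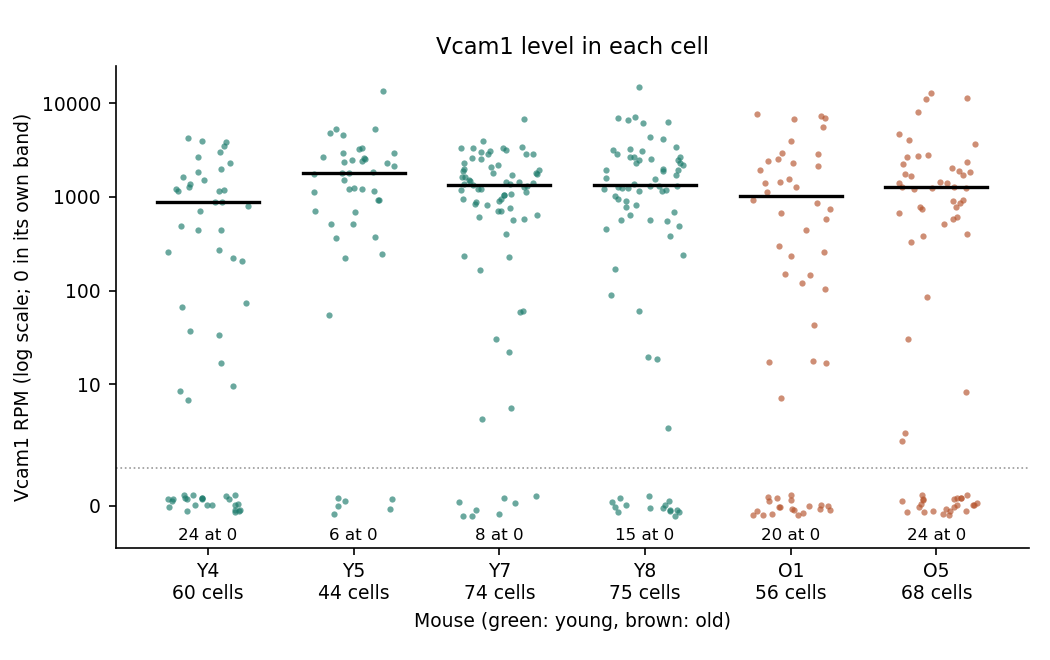
Each point is the *Vcam1* level of 1 cell in RPM (log scale, vertical axis) in each mouse (horizontal axis; green young, brown old), the line is the median of the cells with reads, and cells with 0 reads stand in a band of their own. Cells with reads have medians of 882 to 1806 RPM in the 6 mice, with few between 0 and 100 RPM.

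Every mouse held both kinds of cell. The share of cells with *Vcam1* reads was 60% in mouse Y4 (36 of 60 cells, 95% Wilson interval 47.4% to 71.4%). It was 86.4% in mouse Y5 (38 of 44, 73.3% to 93.6%), 89.2% in mouse Y7 (66 of 74, 80.1% to 94.4%) and, in mouse Y8, 80% (60 of 75, 69.6% to 87.5%). It was 64.3% in O1 (36 of 56, 51.2% to 75.5%) and 64.7% in O5 (44 of 68, 52.8% to 75%). Young mice averaged 78.9% ± 13.2 (SD, n = 4) and the old ones 64.5% ± 0.30 (SD, n = 2), and the young mouse Y4 lay below both old ones. The median level among cells with reads was 882 RPM in Y4, 1806 in Y5, 1350 in Y7, 1349 in Y8, 1029 in O1 and 1281 in O5, so that the old mice lay within the range of the young. Y4, Y5 and Y8 were sequenced in lane 3 and Y7, O1 and O5 in lane 2, and the lowest and the second highest shares came from lane 3. The groups without reads are small in Y5 (6 cells) and Y7 (8 cells), and values of these groups rest on few cells.

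Both groups carried the RNAs of muscle stem cells. *Sdc4*, a surface proteoglycan of these cells, had a read in 279 of 280 cells with *Vcam1* reads and in all 97 without. *Pax7*, the transcription factor that defines the lineage, had a read in 90.7% and 87.6% of cells, and *Des*, the muscle intermediate filament gene, in 90.7% of both. All 11 muscle stem cell markers other than *Vcam1* were detected in each group, with summed levels of 9218 to 16477 RPM over the mice with *Vcam1* reads and 9044 to 16980 RPM without. Because *Vcam1* also marks activated endothelial cells and other stromal cells, markers of those cells were read in both groups. Of 12 endothelial markers, 6 had any read in cells with *Vcam1* reads and 5 in cells without, the summed level was 72.9 to 153 and 14.7 to 195 RPM, and *Cdh5*, *Kdr*, *Tie1*, *Emcn*, *Cldn5* and *Flt1* were at 0 in both groups. Of 12 fibro-adipogenic markers, 5 had a read in each group, with summed levels of 309 to 1173 and 209 to 1184 RPM. At 100000 reads *Dpt* had a read in 77.9% and 70.1% of cells and *Col1a2* in 19.3% and 8.25%, while *Pdgfra*, *Dcn* and *Lum* were at 0 in all cells. Immune markers summed to 2.11 to 26.1 RPM with and 0 to 53.1 RPM without *Vcam1* reads (5 and 4 of 11 detected, with *Lyz2*, *Tyrobp* and *Cd52* at 0 in all cells). Pericyte and smooth muscle markers summed to 1750 to 3051 and 2093 to 3486 RPM (9 and 8 of 10), with *Des* and *Notch3*, which muscle stem cells also express, in most cells and *Myh11* at 0 in all. Schwann cell markers (4 and 2 of 6 detected, *Sox10* at 0), tenocyte markers (3 and 2 of 6, *Tnmd* at 0) and myofibre markers (10 and 4 of 12, *Ckm* at 0) stayed at or under 137 RPM in every mouse and group.

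Sequencing depth was close in the 2 groups. A cell had 102044 to 626142 reads with *Vcam1* reads and 101755 to 600349 without. The mean log2 number of reads per cell, *Vcam1* left out, differed by 0.018 ± 0.16 between cells with and without *Vcam1* reads (SD over 6 mice), and was higher with *Vcam1* reads in 3 of 6 mice (exact two-sided sign-flip permutation test over mice, p = 0.781). With 6 mice this test cannot give a p below 0.0313.

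The number of genes detected was somewhat higher in cells with *Vcam1* reads, within the spread between mice. At 100000 reads per cell the median cell with *Vcam1* reads had a read in 1846 genes in Y4, 2098 in Y5, 2302 in Y7, 1705 in Y8, 1524 in O1 and 1711 in O5. The median cell without had 1650, 2163, 2178, 1660, 1475 and 1568 genes in the same order of mice. The difference was 82 ± 92.1 genes (SD, n = 6 mice), positive in every mouse but Y5, and did not pass the exact sign-flip permutation test (p = 0.125). Without thinning the difference was 91.7 ± 123 genes (SD, n = 6 mice; exact sign-flip permutation test, p = 0.156).

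**Figure D2:**
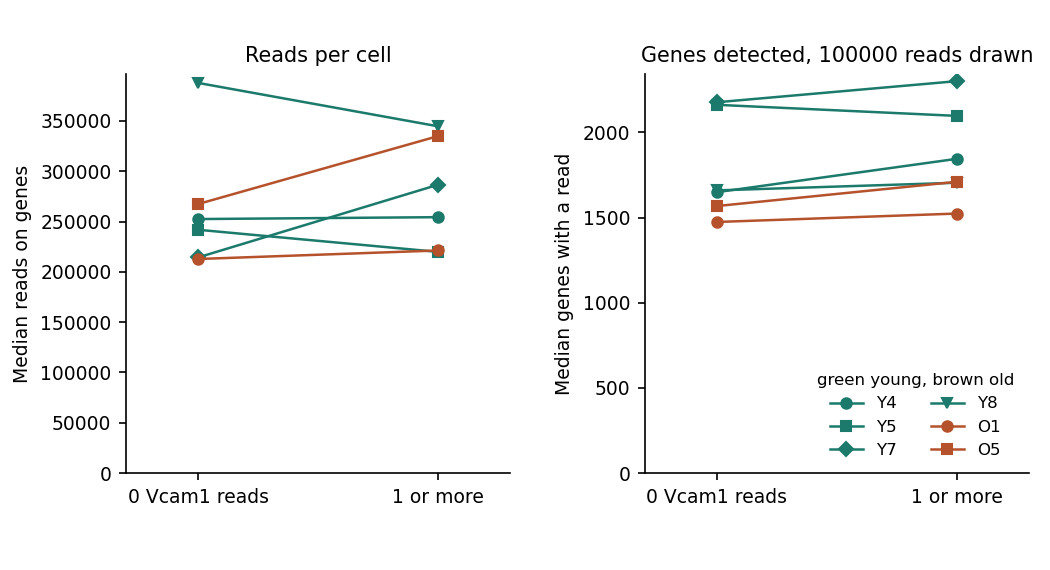
The left panel gives the median number of reads per cell and the right panel the median number of genes with a read after 100000 reads were drawn from each cell, for cells without and with *Vcam1* reads; each line joins the 2 groups of 1 mouse (green young, brown old). Reads per cell have no common direction, and genes detected are higher with *Vcam1* reads in every mouse but Y5.

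To ask which other genes differ between the groups, the counts of all cells of 1 mouse and 1 group were added up, giving 12 libraries of 1409361 to 20600788 reads, and compared within mice by edgeR's quasi-likelihood test. Of 9325 genes tested, 0 were called higher (0% of the genes tested) and 0 lower (0%) at a Benjamini-Hochberg adjusted p of 0.05, and the lowest adjusted p was 0.794. At an unadjusted p under 0.05 there were 521 genes higher and 14 lower with *Vcam1* reads. These became 56 and 62 of 7579 genes tested in cells matched on genes detected. They became 86 and 37 of 7830 with equal numbers of cells in both groups, and 163 and 21 of 9325 without mouse as a block. At the same unadjusted limit, limma on mean log2 values of cells gave 448 and 131 of 9325 genes. With genes detected as a covariate, limma gave 250 and 198. DESeq2 on the same libraries called 712 higher and 16 lower, but 541 of the 712 had a read in under 10% of cells, and with equal numbers of cells drawn in each mouse it called 98 and 50. Limma on mean log2 values of cells called 0. On simulated libraries with the fitted spread between mice (median dispersion 1.66), edgeR found 0 of 100 genes changed by 2-fold and 7 of 100 changed by 4-fold. Differences of these sizes would thus mostly not be detectable in genes drawn at random from all those tested, sparse ones included. At a dispersion of 0.05 for every gene, it found 89 of 100 and 98 of 100, with 6 false calls. Genes of low spread were not simulated apart from the others at their fitted spread.

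Sparse genes dominated the higher side. The libraries of cells without *Vcam1* reads hold fewer cells, and 5524 of the tested genes were at 0 in at least 1 of these 6 libraries, against 1626 in at least 1 of the libraries with. The median log2 fold change (with minus without) was 0.77 over all genes tested, 0.46 over the 5867 tested genes that had a read in at least 10% of cells, 0.22 over 2403 genes in at least 25% and 0.11 over 772 genes in at least 50%. With equal numbers of cells in both groups of each mouse, the median over genes in at least 10% of cells was 0.03, and with 91 pairs of cells matched on genes detected it was -0.01. Single genes are therefore described below from the 5867, and a log2 fold change is read beside their median of 0.46, and a count of list members above 0 beside the 4431 of the 5867, or 75.5%, that were above 0. The 10% limit was taken over all 377 cells, of which 280 held *Vcam1* reads. Sparse genes such as *Gab2*, *Nid1*, *Icam1* and *Col1a2* can therefore pass it mainly through that group. The filter before the test can likewise be passed by the 6 libraries with *Vcam1* reads alone. Counts of genes on the higher side are not free of this. Among the 5867 genes, 132 (2.25%) were higher and 13 (0.222%) lower at an unadjusted p under 0.05. The CPM of the summed libraries (counts scaled to the size of the library, as RPM is for a cell) was higher with *Vcam1* reads in all 6 mice for 213 genes (3.63%) and lower in all 6 for 23 (0.392%). In the same way, the share of cells with a read at 100000 reads was higher in all 6 mice for 158 of 5898 genes (2.68%) and lower in all 6 for 37 (0.627%).

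The integrin partners of *Vcam1* were represented by 1 gene. *Itgb1*, the shared beta chain, had a read in 71.6% of cells. For Y4, Y5, Y7, Y8, O1 and O5 its level with *Vcam1* reads was 684, 313, 409, 487, 376 and 227 CPM, and without them 364, 435, 168, 233, 114 and 149 CPM in the same order. It was thus higher with *Vcam1* reads in every mouse but Y5, although the ranges of the groups overlap. The log2 fold change was 0.86 ± 0.32 (SE; edgeR unadjusted p = 0.0225, adjusted p = 0.794). In mean log2 values of cells the difference was 0.46 by limma and 0.09 with genes detected as a covariate, and between upper and lower *Vcam1* levels, described further on, the log2 fold change was -0.07. The share of cells with an *Itgb1* read did not follow the level, at 69.3% ± 13.9 with and 70.3% ± 23.3 without *Vcam1* reads (SD, n = 6). *Itga4*, *Itga9* and *Itgb7*, which encode the chains that pair to bind *Vcam1*, had a read in 0.265% of cells, or 1 cell for each gene, and were too sparse for the edgeR test.

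Of other integrins and the proteins that link them to actin, 13 of 17 genes in at least 10% of cells were above 0 and 4 below, near the share of all such genes, with a median log2 fold change of 0.45, and 0 were called. Their median was 0.10 in matched cells and -0.31 with equal numbers of cells. The rule for naming genes takes the lowest p values of each list whether or not they passed. *Itgav*, the alpha chain of fibronectin and vitronectin receptors, stood on the low side. Its level was lower with *Vcam1* reads in every mouse but Y5, at 6.62 to 116 CPM (median 37.4) against 45.9 to 292 CPM (median 93.1), with a log2 fold change of -1.48 ± 0.79 (SE; edgeR unadjusted p = 0.087, adjusted p = 0.916). Its share of cells with a read was lower in all 6 mice, by 11.3 ± 7.54 percentage points on average (SD). *Tln1*, which encodes the talin that couples integrins to actin, had a log2 fold change of -0.73 ± 0.51 (SE), and *Lims1*, which encodes another linker at these contacts, 0.73 ± 0.49 (SE). *Rac1*, the small GTPase that drives membrane protrusion at such contacts, had 99.8 to 674 CPM with *Vcam1* reads and 72.1 to 700 CPM without, and was higher in every mouse but Y4. Its log2 fold change was 1.17 ± 0.35 (SE; edgeR unadjusted p = 0.00681, adjusted p = 0.794), and its share of cells was higher in all 6 mice by 10.1 ± 8.39 points (SD).

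Of the other immunoglobulin adhesion molecules, 7 passed the 10% limit, 6 of them above 0, with a median log2 fold change of 0.60 and 0 called, and a median of -0.06 in matched cells and 0.10 with equal numbers of cells. *Icam1*, a ligand of leukocyte integrins that shares its control by NF-kB with *Vcam1* in endothelium, had a read in 11.9% of cells. Its level with *Vcam1* reads was 44.9 CPM in Y4, 222 in Y5, 170 in Y7, 97.9 in Y8, 232 in O1 and 108 in O5. Without them it was 7.70, 103, 61.7, 40.2, 7.77 and 0.53 CPM in the same order, lower in each of the 6 mice, and the groups overlap between mice. The log2 fold change was 2.80 ± 1.02 (SE; edgeR unadjusted p = 0.0201, adjusted p = 0.794). *Cd47*, the widely expressed signal against phagocytosis, had 0.61 ± 0.52 and *Pvrl3*, a nectin, 0.95 ± 0.98 on the log2 scale (SE), neither near the threshold.

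The wider NF-kB and cytokine response list, which also holds *Icam1*, had 25 of 28 genes above 0, a median log2 fold change of 0.61, 3 genes higher and 0 lower at an unadjusted p under 0.05, 4 with a higher level in all 6 mice, and 0 called. With cells matched on genes detected its median was 0.28, beside -0.01 for all genes in at least 10% of cells. *Nfkbiz*, a nuclear regulator induced by NF-kB, had 230 to 1276 CPM (median 533) with *Vcam1* reads and 85.5 to 746 CPM (median 237) without. It was higher in all 6 mice, by 0.03 in O5 up to 2.97 in O1 on the log2(CPM + 1) scale, and the fitted log2 fold change was 1.10 ± 0.37 (SE; edgeR unadjusted p = 0.0142, adjusted p = 0.794). *Irf1*, an interferon response factor, had 0.83 ± 0.37 (SE; edgeR adjusted p = 0.861) but -0.40 in matched cells. *Tnfaip3*, which restrains NF-kB signalling, had 1.32 ± 0.66 (SE; edgeR adjusted p = 0.912), with 1.19 in matched cells but -0.44 with equal numbers of cells.

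Among receptors of niche signals and their targets none was called. The Notch pathway, which holds muscle stem cells in quiescence, had 11 of 16 genes above 0 and 5 below, a median of 0.70 and 0 called, and its median in matched cells was -0.24. *Notch2*, a receptor, had 155 to 473 CPM (median 222) with *Vcam1* reads and 53.7 to 474 CPM (median 90) without. It was higher in every mouse but O5, where the 2 levels were 473 and 474 CPM, with a log2 fold change of 1.19 ± 0.42 (SE; edgeR unadjusted p = 0.0161, adjusted p = 0.794). *Heyl*, a transcriptional target of Notch, was higher in all 6 mice at 166 to 518 CPM against 47.3 to 264 CPM, with a log2 fold change of 0.94 ± 0.34 (SE; edgeR unadjusted p = 0.0194, adjusted p = 0.794), which was 0.02 in matched cells. *Tgfbr2*, the receptor that binds TGF-beta, was among the genes with the lowest p. Its level with *Vcam1* reads was 366 CPM in Y4, 277 in Y5, 300 in Y7, 337 in Y8, 132 in O1 and 518 in O5, and without them 189, 96.7, 128, 312, 29.7 and 238 CPM. All 6 mice had more with *Vcam1* reads, by little in Y8, and the log2 fold change was 1.18 ± 0.34 (SE; edgeR unadjusted p = 0.00565, adjusted p = 0.794). *Fgfr1*, a receptor of fibroblast growth factors, was lower in all 6 mice by 0.18 to 0.55 on the log2(CPM + 1) scale, at 856 to 1612 CPM against 970 to 1953 CPM. Its log2 fold change was -0.33 ± 0.14 (SE; edgeR unadjusted p = 0.0442, adjusted p = 0.861), while its share of cells with a read was 7.3 ± 14.4 points higher (SD).

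Identity and quiescence genes had 18 of 25 above 0, near the share of all genes in at least 10% of cells, with a median of 0.27, or -0.08 in matched cells, and 0 called. *Pax7* had 1092 CPM in Y4, 533 in Y5, 848 in Y7, 407 in Y8, 1359 in O1 and 931 in O5 with *Vcam1* reads. Without them it had 803, 826, 359, 379, 995 and 1042 CPM, so that 4 mice were higher and 2 lower, with a log2 fold change of 0.24 ± 0.25 (SE; edgeR adjusted p = 0.937). *Myf5*, the first myogenic factor of the lineage, had -0.14 ± 0.39, *Calcr*, the calcitonin receptor of quiescent cells, 0.20 ± 0.52, and *Spry1*, an inhibitor of growth factor signalling, 0.53 ± 0.62 (SE; edgeR adjusted p of 0.970, 0.968 and 0.943). The summed level of *Myf5* was higher in 4 mice and lower in 2, with -2.32 in O1 on the log2(CPM + 1) scale. In mean log2 values of cells *Myf5* differed by -0.95 (limma unadjusted p = 0.0276, adjusted p = 0.789). *Myod1*, the factor of activated and committed cells, was lower with *Vcam1* reads in every mouse but O5 at 169 to 1550 CPM against 581 to 1699 CPM, with -0.36 ± 0.28 (SE; edgeR adjusted p = 0.921). The activation and differentiation genes, *Myod1* among them, gave a median of 0.08 with 5 of 8 above 0. The 8 cell cycle genes in at least 10% of cells were all above 0 with a median of 0.34, which was 0.04 in matched cells, and none of them was called.

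The share of cells with a read at 100000 reads was compared for 14 genes, and none passed after Benjamini-Hochberg adjustment over the 14 tests. The 14 include *Itga4*, *Itga9* and *Itgb7*, each with a read in 1 cell, for which the outcome of the test was fixed in advance. *Ccnd1*, which encodes a cyclin of the first growth phase, came nearest: 27.2% ± 16.9 of cells with *Vcam1* reads and 20.8% ± 14 of those without had a read (SD, n = 6), a difference in the same direction in all 6 mice with p = 0.0313 in the exact two-sided sign-flip permutation test, the smallest it allows, and an adjusted p of 0.35. With all reads it was higher in 5 mice, and in matched cells in 2 mice and lower in 2 (7.70 ± 18.5 points, SD). *Gas1*, a surface protein of growth-arrested cells, had 61.8% ± 19.3 and 52.1% ± 24.9, higher in 5 mice and equal in 1 (exact permutation p = 0.0625, adjusted p = 0.35). With all reads *Gas1* was higher in all 6 mice (exact permutation p = 0.0313, adjusted p = 0.438), and in matched cells the difference was 1.28 ± 11.7 points (SD). *Myf5* had 64.9% ± 13.9 and 77.2% ± 16.8, lower in 5 of 6 mice (exact permutation p = 0.0938, adjusted p = 0.35). In matched cells its difference was -22.5 ± 27.6 points (SD), lower in 4 mice and higher in 1. *Col3a1*, a fibrillar collagen gene, differed by 5.04 ± 5.51 points and *Cebpb*, a transcription factor gene of injury responses, by 5.99 ± 7.23 points (SD; exact permutation p = 0.125, adjusted p = 0.35 for each). *Pax7* (88.6% ± 9.19 and 85.1% ± 12.1), *Myod1* (45.4% ± 9.21 and 47.9% ± 12.5), *Calcr* (35.4% ± 6.34 and 32.5% ± 17.1), *Spry1* (36.2% ± 14 and 32.1% ± 10.1) and *Mmp2*, a matrix protease gene (29.2% ± 20 and 34% ± 19.5), had adjusted p values of 0.972 or 1 in the same exact test (SD, n = 6).

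**Figure D3:**
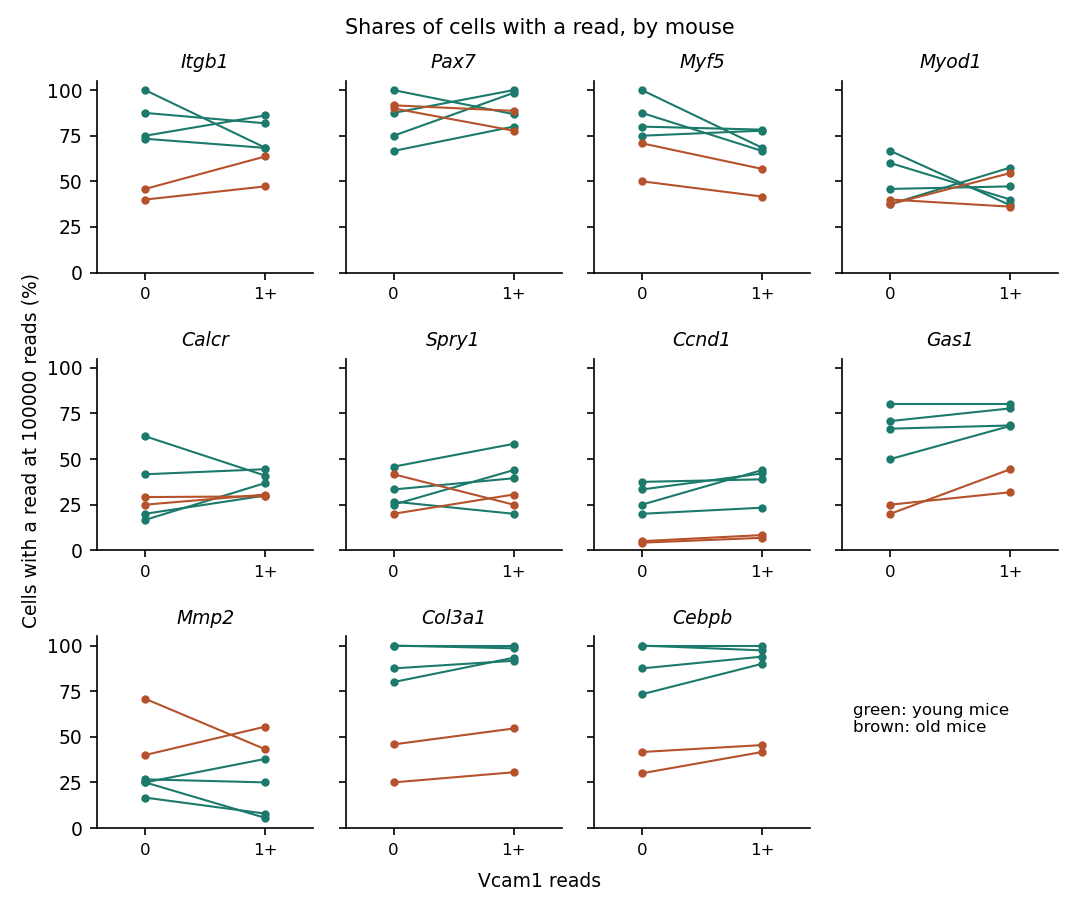
Each panel gives 1 gene, with the percent of cells that had a read of it after 100000 reads were drawn from each cell (vertical axis), for cells with 0 and with 1 or more *Vcam1* reads; each line is 1 mouse (green young, brown old). *Ccnd1* is slightly higher with *Vcam1* reads in all 6 mice, the lines of *Pax7* and *Myod1* cross, and *Myf5* is lower with *Vcam1* reads in 5 of 6 mice.

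Matrix genes of the stem cell niche had 22 of 27 above 0, a median of 0.36, 4 higher and 1 lower at an unadjusted p under 0.05, and 0 called. *Hspg2*, which encodes the basement membrane proteoglycan perlecan, was higher in all 6 mice at 168 to 759 CPM (median 534) against 140 to 574 CPM (median 255), with 0.72 ± 0.27 (SE; edgeR unadjusted p = 0.0207, adjusted p = 0.794). *Col4a2*, a basement membrane collagen gene, was also higher in all 6 mice, at 112 to 475 CPM against 10.7 to 399 CPM, with 1.07 ± 0.46 (SE; edgeR adjusted p = 0.842). *Nid1*, which links laminin to that collagen, was at 0 in 2 of the 6 libraries without *Vcam1* reads and had 0 to 146 CPM there against 17.4 to 305 CPM with, higher in every mouse but Y4. *Col5a3*, a minor fibrillar collagen gene, stood on the other side, lower in every mouse but Y5 with -1.24 ± 0.52 (SE; edgeR adjusted p = 0.836).

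The genes with the lowest p values among those in at least 10% of cells came from several functions. *Sucla2*, a subunit of the mitochondrial succinate-CoA ligase, had 202 CPM in Y4, 309 in Y5, 92.4 in Y7, 159 in Y8, 208 in O1 and 52.1 in O5 with *Vcam1* reads, and 62.3, 6.73, 4.99, 37.3, 46.9 and 14.5 CPM without. All 6 mice were higher with *Vcam1* reads, and only O5 with and Y4 without overlap between the groups. The log2 fold change was 2.81 ± 0.75 (SE; edgeR unadjusted p = 0.00354, adjusted p = 0.794), and the share of cells was higher in all 6 mice by 9.53 ± 5.2 points (SD). In matched cells edgeR gave 1.77 (unadjusted p = 0.314), and with equal numbers of cells 2.37 (unadjusted p = 0.0389). *Ctsz*, a lysosomal cysteine protease gene, had 934, 536, 714, 561, 669 and 1076 CPM with *Vcam1* reads and 648, 259, 601, 465, 291 and 474 CPM without, in Y4, Y5, Y7, Y8, O1 and O5. It was higher in all 6 mice with 0.75 ± 0.22 (SE; edgeR unadjusted p = 0.00698, adjusted p = 0.794), and limma on mean log2 values of cells gave 2.01 ± 0.29 (SE; adjusted p = 0.298), the lowest adjusted p of that test. The edgeR value was 0.45 in matched cells (unadjusted p = 0.195) and 0.44 with equal numbers of cells (unadjusted p = 0.149). *Gab2*, a docking protein of receptor signalling, was at 0 in 4 of the 6 libraries without *Vcam1* reads, at 0.63 CPM in that of Y4 and at 258 CPM in that of O5. With *Vcam1* reads it had 25.9 to 100 CPM, so that its fitted fold change is no measure of size.

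*Fos*, an early gene that tissue digestion is known to induce, had a level that differed in the young mice. With *Vcam1* reads it stood at 4112, 4030, 1981 and 3786 CPM (Y4, Y5, Y7, Y8), and without them at 1131, 1690, 820 and 999 CPM. In the old mice the levels were 3267 and 2951 CPM in O1 and 3236 and 4047 CPM in O5. The log2 fold change over all mice was 1.03 ± 0.29 (SE; edgeR unadjusted p = 0.0048, adjusted p = 0.794), and the share of cells with a read did not move with it (-0.832 ± 19.3 points, SD). Of the isolation response list, 22 of 23 genes were above 0 with a median of 0.23, under the 0.46 of all genes in at least 10% of cells, and 3 were higher at an unadjusted p under 0.05. *Ier2*, another early gene, had 0.74 ± 0.33 and *Hspa1a*, a heat shock gene, 0.79 ± 0.35 (SE; edgeR adjusted p = 0.861 for each). The part of this response in the *Vcam1* groups was not tested.

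On the low side stood *Flnc*, which encodes the muscle filamin, with 555 to 4478 CPM against 714 to 6063 CPM, lower in every mouse but O5 (-0.54 ± 0.17, SE; edgeR unadjusted p = 0.0107, adjusted p = 0.794). *Eda2r*, a receptor of the TNF receptor family, was lower in all 6 mice, at 44.8, 9.35, 72.2, 167, 88.8 and 95.4 CPM with and 200, 23.3, 162, 286, 347 and 163 CPM without *Vcam1* reads, in Y4, Y5, Y7, Y8, O1 and O5 (-1.36 ± 0.45, SE; edgeR unadjusted p = 0.0114, adjusted p = 0.794). *Raly*, an RNA-binding protein gene, had 189 to 343 CPM against 239 to 606 CPM and was lower in every mouse but O5 (-0.84 ± 0.30, SE; adjusted p = 0.794), with -2.14 in matched cells. *Leng8* (-0.88 ± 0.30), *Erf*, a repressor of ETS targets (-0.90 ± 0.33), and *Gm20488* (-0.65 ± 0.26, SE) were each lower in 5 of 6 mice, with edgeR adjusted p values of 0.794 to 0.805. The use of strand in counting is not given in the sources used here, and in GENCODE M21 several of the genes named here, *Rac1* and *Leng8* among them, overlap genes on the other strand while *Raly* and *Gm20488* overlap genes on the same strand, so that their reads can be shared. *Vcam1* itself overlaps an antisense gene on the other strand in that annotation, so that the count that chose the groups could hold reads of it.

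Several of these values depended on which cells were compared, with none called. In matched cells the log2 fold change was 1.77 for *Sucla2*, 0.66 for *Tgfbr2*, 0.52 for *Fos* and 0.55 for *Col4a2*. It was 2.50 for *Icam1*, 1.23 for *Notch2*, -1.97 for *Eda2r* and -0.48 for *Flnc*. With equal numbers of cells it was 2.37 for *Sucla2*, 1.12 for *Tgfbr2*, 0.91 for *Fos* and 0.64 for *Col4a2*. In that setting *Icam1* had 1.69, *Notch2* 0.59, *Eda2r* -2.53 and *Flnc* -0.25.

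**Figure D4:**
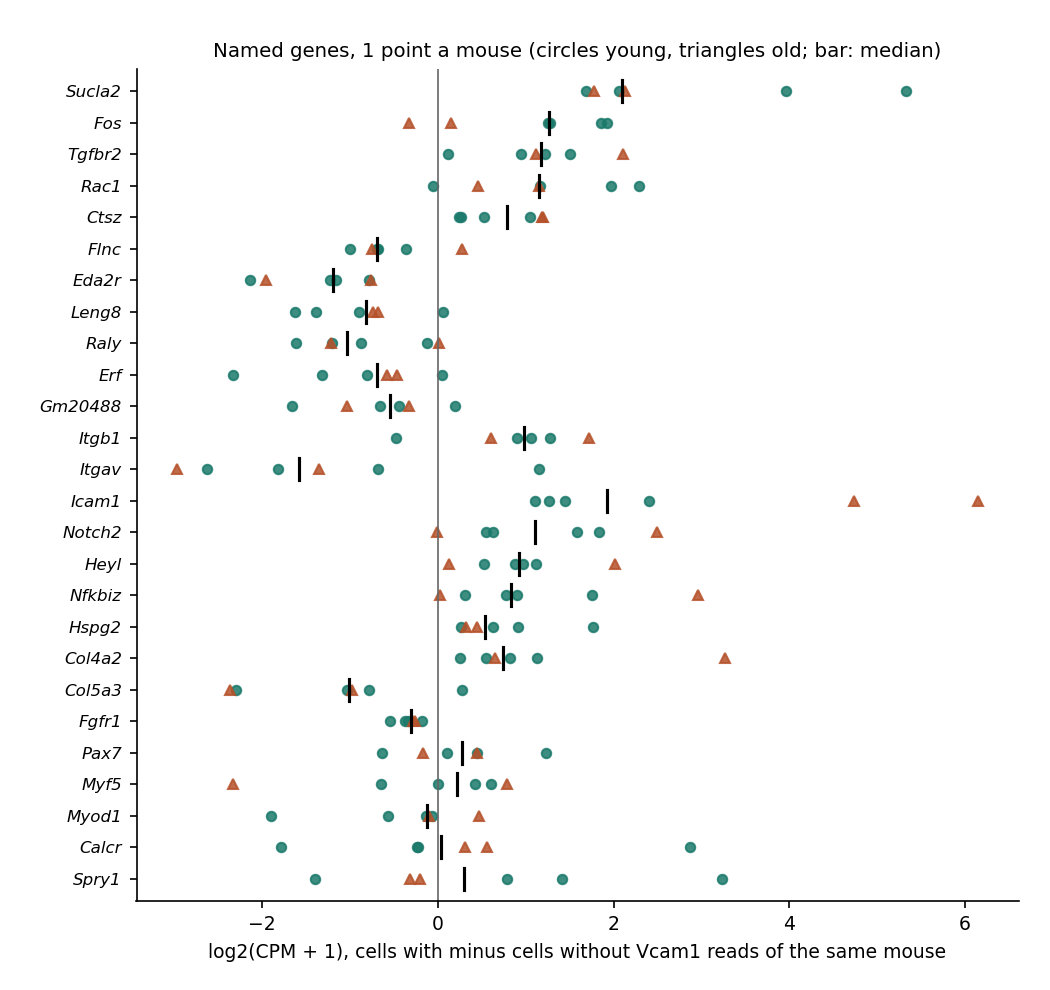
The horizontal axis gives, for each gene, the level in cells with *Vcam1* reads minus that in cells without in the same mouse, as log2(CPM + 1); circles are young mice, triangles old mice and the bar the median of 6. *Sucla2*, *Tgfbr2*, *Ctsz* and *Icam1* lie above 0 and *Eda2r* and *Fgfr1* below 0 in all 6 mice, none passing adjustment, and *Fos* lies near 0 in the 2 old mice.

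The 77 ribosomal protein genes had 43 above 0 and 34 below with a median of 0.02 and 0 called. The 22 oxidative and glycolytic enzymes had a median of 0.33, and the 3 nuclear long noncoding RNAs *Malat1*, *Meg3* and *Neat1* one of -0.05. The 17 stem cell surface markers had 10 above 0 and 7 below with a median of 0.20, and *Cdh15*, the cadherin at the contact with the myofibre, had 0.47 ± 0.35 (SE; edgeR adjusted p = 0.918) and a share of cells 11.4 ± 10.2 points higher (SD), in 5 of 6 mice. Among markers of other cell types, *Eng*, the single endothelial marker in at least 10% of cells, had a log2 fold change of 2.63 ± 1.64 (SE; edgeR adjusted p = 0.916), which was -0.40 with equal numbers of cells. The 2 such fibro-adipogenic markers, *Dpt* and *Col1a2*, had a median of 1.90, or 1.46 in matched cells and 1.74 with equal numbers of cells. *Dpt* had 0.32 ± 0.31, and *Col1a2*, at 0 in 3 of the 6 libraries without *Vcam1* reads, 3.47 ± 2.57 (SE; edgeR adjusted p of 0.936 and 0.918). The share of cells with a *Col1a2* read was higher with *Vcam1* reads in all 6 mice, by 12.7 ± 6.34 points (SD). That of *Dpt* was higher in 2 mice, with a difference of 0.03 ± 10.8 points (SD). The 4 pericyte and smooth muscle markers had a median of 0.11. The part of such cells in the results was not tested.

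To see whether the amount of *Vcam1* mattered among cells that had it, the 280 cells were divided within each mouse at the median *Vcam1* level, into an upper and a lower set of 18 to 33 cells each. The median level was 1750 to 2664 RPM in the upper sets and 191 to 927 RPM in the lower. Of 9056 genes tested, 0 were called (0%; lowest adjusted p = 1.00), 179 (1.98%) had an unadjusted p under 0.05, and DESeq2 called 55 higher and 76 lower. *Tgfbr2* had 555, 412, 237, 456, 163 and 707 CPM in the upper sets and 175, 143, 362, 203, 103 and 299 CPM in the lower, in Y4, Y5, Y7, Y8, O1 and O5, higher in every mouse but Y7 (0.96 ± 0.33, SE; edgeR unadjusted p = 0.0185, adjusted p = 1.00). *Fos* had the opposite sign to its difference between cells with and without reads. It was lower in the upper set in all 6 mice, at 898 to 3989 CPM against 2881 to 5381 CPM (-1.04 ± 0.31, SE; edgeR unadjusted p = 0.00812, adjusted p = 1.00). Chosen after their values were seen, *C1qtnf3*, a secreted C1q and TNF related protein gene, was higher in the upper set in all 6 mice (0.94 ± 0.21, SE), and *Zfp36*, which encodes an mRNA decay factor, was lower in all 6 (-0.65 ± 0.17, SE; edgeR adjusted p = 1.00 for each).

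Whether cells with and without *Vcam1* reads differed otherwise in old than in young mice was tested with an interaction term. Of 9325 genes, 0 were called (0%), 240 (2.57%) had an unadjusted p under 0.05, and DESeq2 called 78 with a larger and 122 with a smaller log2 fold change in old mice. *Fos* had a log2 fold change of 1.58 in young and -0.11 in old mice, a difference of -1.67 (edgeR unadjusted p = 0.000457, adjusted p = 1.00). *Icam1* had 1.6 in young and 6.16 in old mice (edgeR unadjusted p = 0.0166, adjusted p = 1.00), where the libraries without *Vcam1* reads were at 7.77 and 0.53 CPM. With 2 old mice, differences of this kind rest on few animals.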

How the data were processed

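The RNA part of scM&T-seq was used, measured in Pax7Hi muscle stem cells (4 young mice, 2 old). The authors aligned trimmed paired-end reads to GRCm38 with HiSat2 and counted them per gene in SeqMonk. The deposited values are raw counts of reads for 25952 genes in 377 cells that had passed their filters, and all columns were mapped to a mouse by the labels. The annotation release and use of strand are not given in the sources used here. No cells had identical counts.

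Mice were the replicates, and samples were grouped by mouse from the labels and by the *Vcam1* count. The *Vcam1* row was left out of the tests and of the sizes of the summed libraries. RPM values, also those used in limma, and the thinning were based on read totals that include it. Counts were summed per mouse and group and compared with edgeR 4.0.16 (TMM, filterByExpr, quasi-likelihood test with mouse as a block, Benjamini-Hochberg adjustment, threshold 0.05). DESeq2 1.42.0 and limma 3.58.1 (on log2(RPM + 1), in R 4.3.3) were alternatives. CPM values use TMM library sizes. Measures with 1 value per mouse used an exact two-sided sign-flip permutation test (Python 3.11.15, numpy 2.4.6, scipy 1.17.1, pandas 2.3.3). Thinning drew 100000 reads per cell without replacement. Matching paired cells of 1 mouse within 100 genes detected. A cell had 101755 to 626142 reads (median 272816).

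The 2 groups of a mouse are paired because they come from the same animal. The deviations of same-mouse libraries correlated at 0.0438 to 0.153, in each mouse above every other mouse.

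The cell groups and gene lists were chosen with earlier results of these data known. The rule named the integrin partners and the genes that other splits of these cells use, the 4 genes with the lowest p in each list, and the 12 largest called changes in each direction, of which there were none, so that the 6 lowest p values in each direction among genes that 10% or more of the cells had a read of were described instead; not every gene it named is described. Methylation data and other experiments of the study were not analysed here. The test was tested on simulated data.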

Additional observations from a re-analysis of the deposited data

Results flagged for a closer look

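Over 86 sets of 6 mice examined, 8 held a mouse that stood apart from the others in its difference between cells with and without *Vcam1* reads, by Dixon's test at the 95% level, where chance flags about 5% of sets. On the log2(CPM + 1) scale these were *Ccnd1* in O1 (4.08), *Mmp2* in Y4 (-2.24), *Gab2* in O5 (-1.35), *Pvrl3* in O1 (6.79), *Col4a2* in O1 (3.27), *Tpi1* in Y8 (6.92), *Cdh15* in Y5 (2.50) and *Rpl27a* in Y7 (0.96). Of these, *Ccnd1* and *Pvrl3* stood at 0.54 and 1.34 CPM in the O1 library without *Vcam1* reads, *Tpi1* was at 0 in that of Y8, and Y5 and Y7 hold 6 and 8 cells without *Vcam1* reads.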

How the results depend on the processing

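Calls depended on the tool. The 0 genes called higher and 0 lower by edgeR became 712 and 16 with DESeq2, and 98 and 50 with DESeq2 on equal numbers of cells. DESeq2 gave 131 genes in place of 0 between upper and lower *Vcam1* levels and 200 in place of 0 for the difference between ages. The other 23 of 25 alternatives, among them each lane alone, young or old mice alone and each mouse left out, called 0 genes, including the fit without the block for mouse (no pairing, 0 higher and 0 lower, lowest adjusted p = 0.148), and that fit also called 0 between upper and lower *Vcam1* levels. Equal cells with DESeq2, genes in at least 25% of cells, and the 4 mice with 15 or more cells without *Vcam1* reads were alternatives chosen after seeing the data. TMM gave a median log2 fold change of 0.77 and DESeq2 size factors 0.61 over all genes.

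The difference in log2 reads per cell ranged from -0.021 to 0.056 when single mice were left out, negative without O5 (-0.021) or Y7 (-0.014). The difference in genes detected at 100000 reads ranged from 59.2 to 111 without single mice. Of 83 named genes fitted, 27 had an unadjusted p under 0.05, and 23 of these kept their sign in all alternatives. *Fos* turned to -0.11 in old mice only. *Fgfr1* turned to 0.29 with limma, also on genes in at least 25% of cells, and 0.17 with genes detected as covariate. *Heyl* turned to -0.21 and *Irf1* to -0.0056 with equal numbers of cells (-0.22 and -0.015 with DESeq2), and *Irf1* to -0.40 in matched cells. The causes were not tested. The other 56 genes had an unadjusted p of 0.05 or more, and 40 of them changed sign in at least 1 alternative. Directions given above for genes of this set, such as *Itgav* and *Myod1*, describe these mice only.

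Depth and cell number limit these data. Cells without *Vcam1* reads number 6 to 24 per mouse, the read totals of their summed libraries are lower, and a 0 for *Vcam1* allows up to 29.5 RPM in the shallowest cell.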
